A study of Homo sapiens with 4 samples.

Results

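The set described here holds 29 human genes for cholesterol and fatty acid synthesis and its control, taken by gene symbol from a table of 56303 features. All 29 passed the low-count filter (10 or more counts in 2 or more libraries) and so were among the 19210 features compared. RNA bound by RBM39, a protein of the spliceosome that binds RNA, was pulled down with an antibody and sequenced from Huh7, an established line of human liver carcinoma cells. The 4 groups were the immunoprecipitate (IP) of cells that carried a plasmid-borne hairpin against RBM39 (shRBM39), the input RNA of the same cells, the IP of cells with a control hairpin (shControl) and the input RNA of those, with 1 library each and no other treatment named. None of the 4 libraries was an IP with a control antibody, so a ratio of IP over input includes any recovery that does not depend on RBM39.

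Cholesterol is built from acetyl-CoA, first by soluble enzymes that make mevalonate and isoprenoids and then by enzymes in the membrane of the endoplasmic reticulum (ER) that make squalene and convert it to sterols. Fatty acids are likewise made by soluble enzymes and then elongated and desaturated in the ER membrane. The hepatocyte is a main site of both pathways, and their genes share control by the transcription factors SREBP-1 and SREBP-2, which SCAP and the INSIG proteins hold in, or release from, the ER according to sterol supply. Many, but not all, proteins of the ER membrane are made by ribosomes at the ER surface, and soluble enzymes mostly by free ribosomes. The 29 genes were divided by the textbook location of the protein, not by the site of translation. This gave 13 ER membrane enzymes, 10 soluble enzymes, 5 ER membrane regulators and 1 soluble sterol carrier.

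Levels are TMM-scaled counts relative to library size (CPM), which express a share of the library, so that fewer cells with a transcript, less of it per cell and more of other transcripts cannot be told apart. Since no transcript lengths were used, levels are compared between libraries and not between genes. The total count was 45812488 in the shRBM39 IP, 22249581 in the shRBM39 input, 41387762 in the shControl IP and 20858382 in the shControl input. With 1 library per group, differences between libraries have no replicate check, and the intervals in parentheses are 95% intervals of counting error only. A gene is called higher or lower when its ratio was past 2-fold (1 as a log2 value) and this interval excluded equality. The hairpin's target was little changed in input RNA, with RBM39 at 370 CPM in the shRBM39 input and 404 CPM in the shControl input, a ratio of 0.917, so "shRBM39" below names the libraries as labelled. In the IPs RBM39 mRNA stood at 2221 CPM in the shRBM39 library and 1036 CPM in the shControl library. Its IP over input was thus higher in shRBM39 cells, by 1.23 (1.18 to 1.27) as a difference of log2 ratios. This ratio describes the recovery of that mRNA and not the amount of RBM39, and the label gives no direction for it. The 8 hepatocyte markers looked at, albumin and AFP among them, were present in the inputs at 52.9 to 4085 CPM, while PTPRC, the leukocyte marker, had 0 to 2 counts in any library. The hepatocyte markers summed to 5268 CPM in the shRBM39 IP and 12641 CPM in its input, against 9055 CPM in the shControl IP and 13368 CPM in its input. The endothelial markers summed to 3.81 to 8.69 CPM and the stellate markers to 2.02 to 3.90 CPM over the libraries, with DCN at 0, while LYZ, which myeloid cells also make, had 5947 to 12830 counts. Their part in the results below was not tested.

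Stretches of the promoters are shown because the genes share transcriptional control and their input levels are compared below. Of the 29 genes, 25 had a RefSeq promoter that could be used. In the 250 bases before a start site, the letters TCACNCCAC, taken from the sterol response element, were found on either strand in 1 of the 25, SREBF2, against 1.2% of 11153 compared features with a promoter. The box CCAAT, which NF-Y binds, was found on either strand (as CCAAT or ATTGG) in 19 of 25 genes (76.0%), against 41.4% of all. It was present in 9 of 11 ER membrane enzymes and in 7 of 8 soluble enzymes, so the box did not separate the classes. A match of letters is a description and not a binding site. The windows below are from RefSeq on GRCh38.p14, written 5′ to 3′ on the gene's strand, with the matched letters in capitals. The SREBF2 window (chr22:41832962-41833011, plus strand) holds the sterol response letters followed by an inverted CCAAT box. HMGCS1 (chr5:43313498-43313577, minus strand) and MSMO1 (chr4:165327474-165327643, plus strand) are a soluble and an ER membrane enzyme whose input levels lay at opposite sides of equality.
SREBF2: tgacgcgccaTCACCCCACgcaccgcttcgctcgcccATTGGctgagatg
HMGCS1: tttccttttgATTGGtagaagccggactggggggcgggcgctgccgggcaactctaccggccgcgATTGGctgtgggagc
MSMO1: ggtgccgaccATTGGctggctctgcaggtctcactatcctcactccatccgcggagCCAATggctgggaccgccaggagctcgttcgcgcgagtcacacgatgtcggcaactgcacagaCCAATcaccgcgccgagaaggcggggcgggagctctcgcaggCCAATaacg

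**Figure D1:**
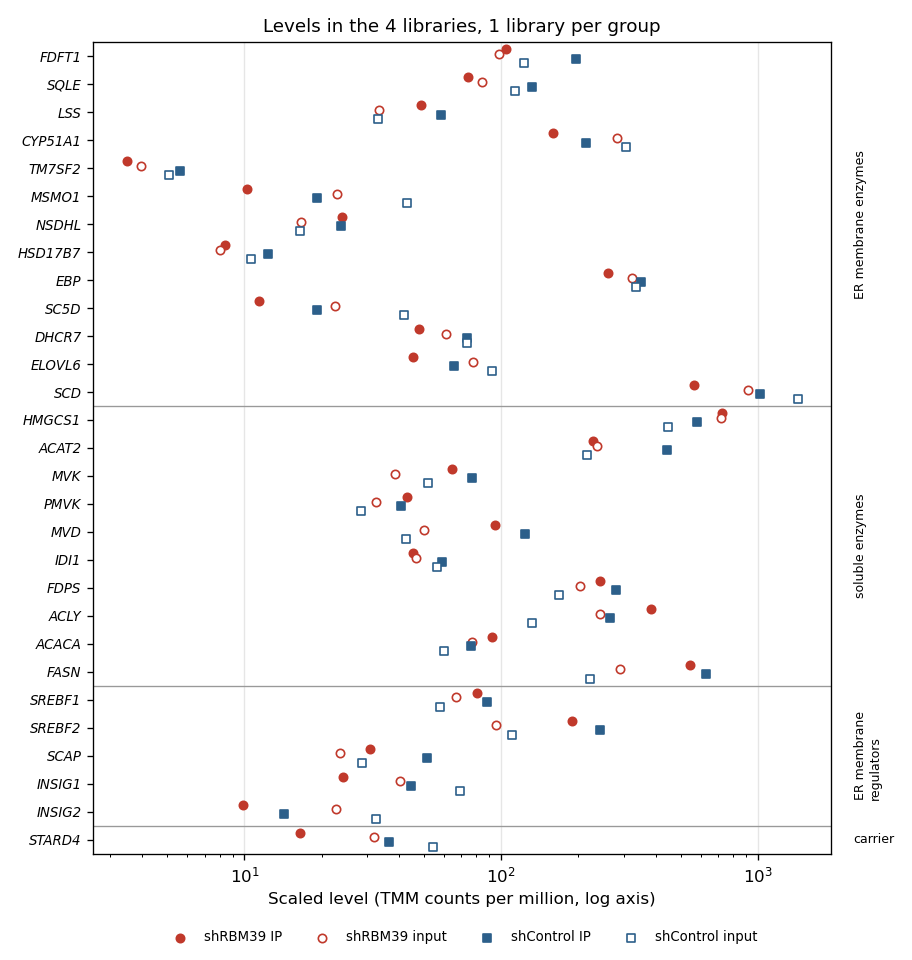
Scaled level of each of the 29 genes in the 4 libraries (x axis, CPM, log axis), grouped by protein location, with filled points for IP and open points for input. MSMO1, SC5D, INSIG2 and STARD4 have their IP points left of their own input points in both cultures, and MVD, FASN and SREBF2 have them to the right.

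Soluble and ER membrane enzymes differed in how far their mRNAs were recovered with the RBM39 antibody. Over both cultures, with culture and fraction as additive terms, edgeR's quasi-likelihood test called 11 of the 29 genes higher in IP than in input libraries and 8 lower, against 19.2% and 17.6% of all 19210 features in these directions (Benjamini-Hochberg adjusted p under 0.05). Among the 13 ER membrane enzymes 2 were higher and 5 lower. Among the 10 soluble enzymes 6 were higher and 0 were lower, and the other 4 were not called in either direction. With 1 residual degree of freedom in this model, any real change of the ratio from one culture to the other enters the error. DESeq2 with the same model called 8 higher and 8 lower, and edgeR on libraries scaled to total counts 7 higher and 8 lower. The shares of 19.2% and 17.6% belong to the first edgeR fit only. Those of all features under the 2 alternatives are not given here, so their member counts have no background beside them.

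Within each culture the order of the classes was alike. In shRBM39 cells the median log2 ratio of IP over input was -0.31 for ER membrane enzymes and 0.33 for soluble enzymes, a difference of -0.64. In shControl cells the medians were 0.07 and 0.65, a difference of -0.59. The medians of all compared features were 0.02 in shRBM39 cells and -0.01 in shControl cells. All 10 soluble enzymes lay above the ER membrane median in both cultures, and 11 of 13 ER membrane enzymes lay below the soluble median. The classes overlapped: of the 130 pairs of an ER membrane and a soluble enzyme, the ER membrane enzyme had the lower ratio in 112 in each culture. Without the 6 genes that overlap another gene with 100 or more counts in a library, 4 of them soluble enzymes, the soluble median in shRBM39 cells was 0.53 and the difference -0.84. The 2 cultures share no library in this comparison, but the genes were the same and were chosen with earlier results of these data known, so no test of the class difference is given.

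**Figure D2:**
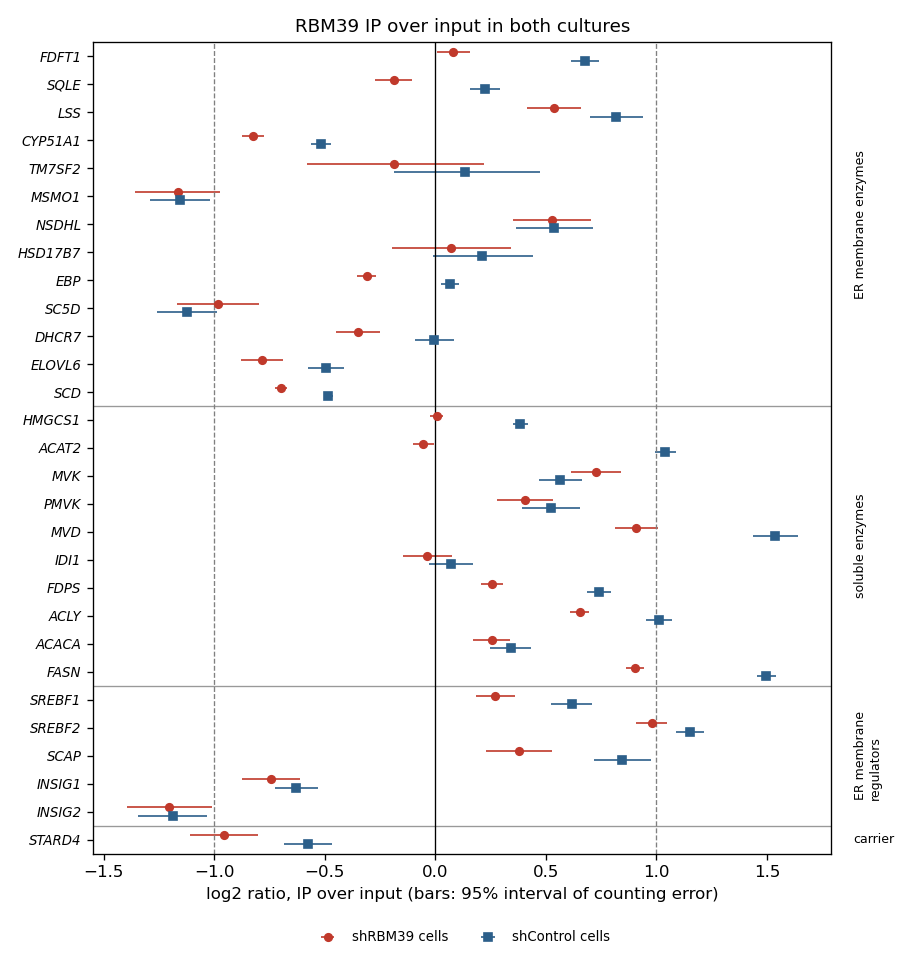
Log2 ratio of IP over input (x axis) for each gene in shRBM39 cells (circles) and shControl cells (squares), with 95% intervals of counting error and dashed lines at 2-fold. MVD, FASN and SREBF2 stand farthest to the right and MSMO1, INSIG2 and SC5D farthest to the left in both cultures.

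The soluble enzymes of the mevalonate route were led by MVD, which decarboxylates mevalonate diphosphate. MVD stood at 94.4 CPM in the shRBM39 IP and 50.3 CPM in its input, against 124 CPM in the shControl IP and 42.6 CPM in its input. Its log2 ratio of IP over input was 0.91 (0.81 to 1.01) in shRBM39 cells and 1.54 (1.44 to 1.64) in shControl cells, and it was called by edgeR (adjusted p = 1.87e-05). Both IP libraries therefore held more MVD than both inputs. ACAT2, the cytosolic acetoacetyl-CoA thiolase that opens the route, stood apart between the cultures. It had 228 CPM in the shRBM39 IP and 237 CPM in its input, against 444 CPM in the shControl IP and 216 CPM in its input. Only the shControl IP was high, with a log2 ratio of -0.05 (-0.10 to -0.01) in shRBM39 cells and 1.04 (0.99 to 1.09) in shControl cells, and edgeR did not call it (adjusted p = 0.0785).

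HMGCS1, which makes HMG-CoA, behaved otherwise: it had 723 CPM in the shRBM39 IP and 720.1 CPM in its input, against 581 CPM in the shControl IP and 446 CPM in its input. Its log2 ratio was 0.01 (-0.02 to 0.03) in shRBM39 cells and 0.38 (0.35 to 0.42) in shControl cells. The kinases MVK and PMVK, which phosphorylate mevalonate in turn, were both called higher in the IP. MVK stood at 64.2 CPM in the shRBM39 IP and 38.8 CPM in its input, against 76.7 CPM in the shControl IP and 51.8 CPM in its input (adjusted p = 0.0019 in edgeR). PMVK stood at 42.9 and 32.4 CPM in the shRBM39 IP and input, against 40.9 and 28.5 CPM in the shControl IP and input (adjusted p = 0.0175 in edgeR and 0.0722 in DESeq2). FDPS, the farnesyl diphosphate synthase, had log2 ratios of 0.26 in shRBM39 cells and 0.74 in shControl cells (adjusted p = 0.0321 in edgeR and 0.0957 with total counts). FDPS shares its locus with RUSC1-AS1, which had ratios of 0.21 and 0.85. Whether reads of the pair were told apart is not known, as the counting program and strand setting are not given. IDI1, the isomerase before FDPS, was the soluble enzyme with the IP closest to its input in shControl cells, at 45.5 and 46.6 CPM in the shRBM39 IP and input, against 58.9 and 56.1 CPM in the shControl IP and input.

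The soluble enzymes of fatty acid synthesis all had IP levels above input. FASN, the fatty acid synthase, stood at 543 CPM in the shRBM39 IP and 290.3 CPM in its input, against 627 CPM in the shControl IP and 222 CPM in its input. Its log2 ratio was 0.90 (0.86 to 0.95) in shRBM39 cells, and in shControl cells the IP was 2.82-fold above the input, with an interval of 1.45 to 1.54 on the log2 scale (adjusted p = 0.000106 in edgeR). The IP levels lay above both inputs, as for MVD. ACLY, which supplies cytosolic acetyl-CoA from citrate, had 382 CPM in the shRBM39 IP and 243 CPM in its input, against 265 CPM in the shControl IP and 131 CPM in its input. Its ratios were 0.65 (0.61 to 0.70) and 1.01 (0.95 to 1.07) on the log2 scale in shRBM39 and shControl cells, with an adjusted p of 0.00101 in edgeR. The shRBM39 input nearly reached the shControl IP for this gene. ACACA, the acetyl-CoA carboxylase that makes malonyl-CoA, was not called, with log2 ratios of 0.25 (0.17 to 0.34) in shRBM39 cells and 0.34 (0.25 to 0.43) in shControl cells.

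At the 2-fold threshold MVD, FASN, ACAT2 and ACLY were higher in the shControl IP, as was the regulator SREBF2, and these made up the 5 of 29 genes called higher there, where 7.7% of all features were. In the shRBM39 IP 0 of 29 were called higher, where 5.29% of all features were. Lower than input by 2-fold were 2 of 29 genes in shRBM39 cells (9.0% of all features) and 3 of 29 in shControl cells (11.3% of all features), which is near the share of all features. In both cultures 0 genes were higher, where 2.27% of all features were, and MSMO1 and INSIG2 were lower, where 5.1% were. Without the low-count filter, which changes the scaling, 3 genes (MVD, FASN and SREBF2) were higher in both, where 2.1% of 33840 features were. With a 1.5-fold threshold, 5 genes were higher and 8 lower in shRBM39 cells (15.5% and 17.4% of all features), and 10 higher and 4 lower in shControl cells (18.9% and 20.6% of all features).

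Among the ER membrane enzymes of the sterol branch, the lowest recovery was that of MSMO1 and SC5D, the methylsterol monooxygenase and the sterol C5 desaturase. MSMO1 stood at 10.2 CPM in the shRBM39 IP and 22.9 CPM in its input, against 19.3 CPM in the shControl IP and 42.9 CPM in its input. Its log2 ratio was -1.17 (-1.36 to -0.98) in shRBM39 cells and -1.16 (-1.29 to -1.02) in shControl cells, near-equal in the 2 cultures although the input level was not (adjusted p = 1.25e-05 in edgeR). SC5D stood at 11.4 CPM in the shRBM39 IP and 22.6 CPM in its input, against 19.2 CPM in the shControl IP and 41.9 CPM in its input. Its ratios were -0.98 (-1.17 to -0.80) and -1.12 (-1.26 to -0.99) on the log2 scale in shRBM39 and shControl cells, with an adjusted p of 3.29e-05 in edgeR. CYP51A1, the lanosterol demethylase, was the third sterol enzyme called lower, at 159 and 282 CPM in the shRBM39 IP and input, against 215 and 307 CPM in the shControl IP and input (adjusted p = 0.00475 in edgeR). For each of these genes the IP level lay below both inputs.

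Of the 13 ER membrane enzymes edgeR called 5 lower in the IP and 2, LSS and NSDHL, higher. LSS, which cyclises squalene epoxide to lanosterol and sits in the membrane without spanning it, stood at 48.7 CPM in the shRBM39 IP and 33.6 CPM in its input, against 58.4 CPM in the shControl IP and 33.1 CPM in its input. It was called higher by edgeR (adjusted p = 0.00141), with log2 ratios of 0.54 (0.41 to 0.66) in shRBM39 cells and 0.82 (0.70 to 0.94) in shControl cells. NSDHL, a sterol dehydrogenase of the ER and of lipid droplets, had near-equal values in the cultures, at 24.0 and 16.6 CPM in the shRBM39 IP and input, against 23.8 and 16.4 CPM in the shControl IP and input. Its adjusted p was 0.0109 in edgeR, 0.0602 in DESeq2 and 0.0531 with total counts. FDFT1, the squalene synthase, was not called (adjusted p = 0.0872 in edgeR): it had 104 and 98.4 CPM in the shRBM39 IP and input, against 196 and 122 CPM in the shControl IP and input, so that only the shControl IP was high.

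The other sterol enzymes were not called in either direction. SQLE, the squalene epoxidase, stood at 74.0 CPM in the shRBM39 IP and 84.4 CPM in its input, against 132 CPM in the shControl IP and 113 CPM in its input. EBP, the sterol isomerase, stood at 262 CPM in the shRBM39 IP and 325 CPM in its input, against 351 CPM in the shControl IP and 335 CPM in its input. For both genes the IP lay below its input in shRBM39 cells and above it in shControl cells. DHCR7, which makes cholesterol from 7-dehydrocholesterol, had log2 ratios of -0.35 (-0.45 to -0.25) in shRBM39 cells and -0.01 (-0.09 to 0.08) in shControl cells. TM7SF2, a sterol reductase, and HSD17B7, a sterol ketoreductase, rested on 86 to 254 and 174 to 556 counts per library, and all their intervals of IP over input included equality.

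The ER membrane enzymes of fatty acid synthesis, ELOVL6 and SCD, were both called lower in the IP, opposite to FASN and ACLY upstream of them. ELOVL6, which elongates palmitate, stood at 45.2 CPM in the shRBM39 IP and 77.9 CPM in its input, against 65.4 CPM in the shControl IP and 92.3 CPM in its input (adjusted p = 0.00253 in edgeR). SCD, the stearoyl-CoA desaturase, stood at 564 CPM in the shRBM39 IP and 916 CPM in its input, against 1023 CPM in the shControl IP and 1432 CPM in its input. Its log2 ratio was -0.70 (-0.73 to -0.67) in shRBM39 cells and -0.48 (-0.51 to -0.46) in shControl cells, with an adjusted p of 0.0301 in edgeR. As 30847 counts in the shControl input stand behind it, SCD has the narrowest counting intervals of the ER membrane enzymes.

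The regulators, although all proteins of the ER membrane, fell on both sides. SREBF2, which encodes SREBP-2, was recovered more than its input, at 188 CPM in the shRBM39 IP and 95.4 CPM in its input, against 244 CPM in the shControl IP and 110 CPM in its input (adjusted p = 5.36e-05 in edgeR). Its log2 ratio was 0.98 (0.91 to 1.05) in shRBM39 cells and 1.15 (1.09 to 1.22) in shControl cells. SCAP, the escort of the SREBPs, had ratios of 0.38 (0.23 to 0.53) and 0.85 (0.72 to 0.98) on the log2 scale in shRBM39 and shControl cells (adjusted p = 0.00431 in edgeR). SREBF1, which encodes SREBP-1, had ratios of 0.27 and 0.62 (adjusted p = 0.0284 in edgeR and 0.0723 in DESeq2). SREBF1 overlaps RAI1 in the annotation, which had ratios of 1.28 and 1.25.

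INSIG1 and INSIG2, which hold SCAP in the ER, were both called lower. INSIG2 stood at 9.86 CPM in the shRBM39 IP and 22.7 CPM in its input, against 14.3 CPM in the shControl IP and 32.5 CPM in its input. Its log2 ratio of -1.20 (-1.40 to -1.01) in shRBM39 cells and -1.19 (-1.35 to -1.03) in shControl cells was the lowest of the 29 genes in both cultures (adjusted p = 1.19e-05 in edgeR). INSIG1 had ratios of -0.74 (-0.88 to -0.61) and -0.63 (-0.73 to -0.53) in shRBM39 and shControl cells (adjusted p = 0.00105 in edgeR). STARD4, a soluble carrier that moves sterols between membranes, was also below its inputs, at 16.5 and 32.0 CPM in the shRBM39 IP and input, against 36.6 and 54.5 CPM in the shControl IP and input (adjusted p = 0.000645 in edgeR). STARD4 is thus a soluble protein on the side of the INSIG genes. Its antisense neighbour STARD4-AS1 had log2 ratios of -0.79 and -0.72. With no strand setting given, whether reads of this pair were told apart is not known. With the regulators added to the ER membrane class and STARD4 to the soluble class, the difference of medians was -0.51 in shRBM39 cells and -0.46 in shControl cells.

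SREBF2 and SREBF1 each hold a microRNA of the miR-33 family in an intron, known to act on cholesterol export genes. The mature sequences from RefSeq (GRCh38.p14) are shown with the seed, bases 2 to 8, in capitals, because both host genes are members and the pair shares the seed UGCAUUG. MIR33A lies at chr22:41900949-41900969 on the plus strand and MIR33B at chr17:17813897-17813916 on the minus strand.
hsa-miR-33a-5p: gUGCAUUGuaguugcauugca
hsa-miR-33b-5p: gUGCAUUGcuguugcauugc
The feature MIR33A had 1 count in the shRBM39 IP and 1 in its input, against 2 in the shControl IP and 4 in its input, and MIR33B had 0 in all 4 libraries, so neither precursor can be compared at this depth and mature microRNAs were not measured.

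The ratio of IP over input was lower in shRBM39 than in shControl cells for 27 of the 29 genes, with a median difference of -0.31 on the log2 scale, against -0.00 for all features. The comparison lists described further below were shifted too: 20 of 21 cytosolic glucose enzymes were below 0 (median -0.47), as were 12 of 12 ER chaperones (-0.37). So were 16 of 24 ER membrane proteins outside lipid synthesis (-0.27) and 36 of 52 other sterol and fatty acid genes (-0.28). Libraries scaled to total counts gave a member median of -0.50, of which -0.19 is the shift of the median of all features under that scaling. The ER membrane enzymes had a median difference of -0.29 and the soluble enzymes -0.37, so this difference did not follow protein location. At 1.5-fold, 0 genes were higher (7.95% of all features) and 4 lower (6.83% of all features). By the 2-fold rule ACAT2 alone was lower (2.74% of all features were) and 0 genes were higher (4.39% of all features). The difference for ACAT2 was -1.09 (-1.16 to -1.03). Of the neighbours that overlap ACAT2 in the annotation, TCP1 had a difference of -0.50 and SOD2 one of -0.16.

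After ACAT2 the farthest differences were those of MVD at -0.63 (-0.77 to -0.49), FDFT1 at -0.60 (-0.69 to -0.50) and FASN at -0.59 (-0.65 to -0.53). These are genes with IP above input in shControl cells. That ratio is subtracted to give the difference, so a high value lowers the difference by construction. Whether the difference depends on recovery in shControl cells therefore cannot be read from these values. At the other end, MSMO1 at -0.01 (-0.24 to 0.22), NSDHL at -0.01 (-0.25 to 0.24) and INSIG2 at -0.02 (-0.26 to 0.23) had intervals that included 0. The exceptions with a positive value were MVK at 0.16 (0.01 to 0.31) and SC5D at 0.14 (-0.09 to 0.36), and both were below 0 with libraries scaled to total counts.

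In input RNA, 0 of the 29 genes differed by 2-fold between the cultures in either direction, where 5.1% of all features were higher and 5.74% lower in shRBM39 cells. Smaller differences again lay apart by protein location. The median log2 ratio of shRBM39 over shControl was -0.31 for ER membrane enzymes and 0.26 for soluble enzymes, a difference of -0.57, against a median of -0.01 for all features. Of the ER membrane enzymes 11 of 13 were below 0, and of the soluble enzymes 8 of 10 were above 0. All 13 ER membrane enzymes lay below the soluble median, and 8 of 10 soluble enzymes lay above every ER membrane enzyme. At 1.5-fold, 2 genes were higher (12.7% of all features) and 5 lower (11.9% of all features).

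**Figure D3:**
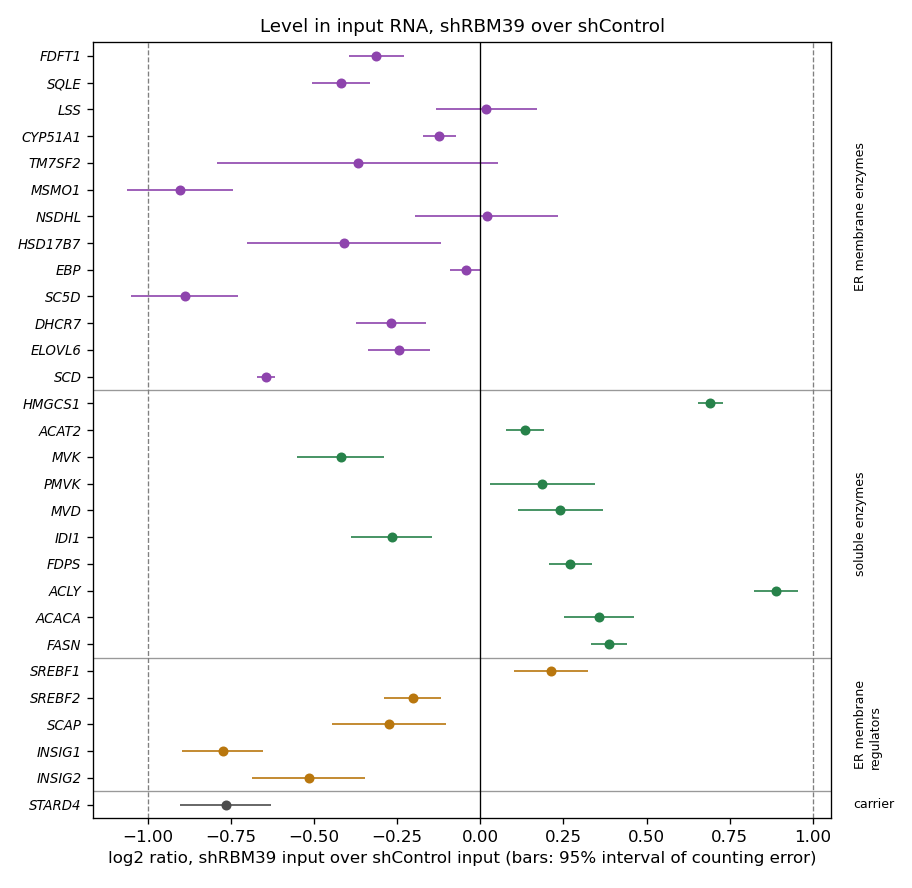
Log2 ratio of the shRBM39 input over the shControl input (x axis) for each gene, with 95% intervals of counting error and dashed lines at 2-fold. ACLY and HMGCS1 lie farthest to the right among soluble enzymes and MSMO1, SC5D and SCD farthest to the left among ER membrane enzymes, all within 2-fold.

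The soluble enzymes with the largest input ratios were ACLY, at 243 CPM in the shRBM39 input and 131 CPM in the shControl input (log2 0.89, 0.82 to 0.96), and HMGCS1, at 720.1 and 446 CPM in the same libraries (log2 0.69, 0.66 to 0.73). These 2 genes were also those past 1.5-fold. FASN (0.39, 0.33 to 0.44) and ACACA (0.36, 0.25 to 0.46) followed, so that the 3 soluble enzymes of fatty acid synthesis all stood above equality. The soluble exceptions were MVK at -0.42 (-0.55 to -0.29) and IDI1 at -0.27 (-0.39 to -0.14). MMAB, which overlaps MVK in the annotation, had an input ratio of -0.47.

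Of the ER membrane enzymes, MSMO1 had an input ratio of -0.90 (-1.06 to -0.75), SC5D of -0.89 (-1.05 to -0.73) and SCD of -0.64 (-0.67 to -0.62). INSIG1 at -0.77 (-0.90 to -0.65) and STARD4 at -0.77 (-0.90 to -0.63) were the other genes past 1.5-fold. The IP levels of these 5 genes also lay below the input levels of the same culture, but the comparisons share the input libraries and are given side by side only. LSS at 0.02 (-0.13 to 0.17) and NSDHL at 0.02 (-0.20 to 0.23), the ER membrane enzymes called higher in the IP, had input ratios whose intervals included equality. SREBF1 had 0.21 (0.10 to 0.32) and SREBF2 -0.20 (-0.29 to -0.12).

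The IP libraries were also set against each other. They are separate libraries from the inputs but come from the same cultures, so the 2 comparisons are not independent. The median log2 ratio of the shRBM39 IP over the shControl IP was -0.61 for ER membrane enzymes and -0.21 for soluble enzymes, against -0.01 for all features. All 18 genes below 0 in the inputs were below 0 in the IPs, which is 62.1% of the set against 36.5% of all features below 0 in both. Above 0 in both were HMGCS1, ACLY, ACACA, PMVK and NSDHL, or 17.2% of the set against 34.9% of all features. STARD4 (-1.15, -1.28 to -1.02) was the gene past 2-fold in the IPs, where 5.27% of all features were lower, and 0 genes were higher (6.61% of all features). Scaling to total counts moves the IP ratios of all features by -0.27.

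Genes of other pathways with proteins of the ER or of the cytosol were set beside the members. The chaperones were listed as proteins of the ER lumen, a location that no class of the members has. The median log2 ratio of IP over input of 24 ER membrane proteins outside lipid synthesis was -0.59 in shRBM39 cells and -0.47 in shControl cells. That of 12 ER chaperones was -0.85 and -0.48. For 21 cytosolic enzymes of glycolysis, the pentose phosphate route and glycogen metabolism the medians were 0.51 and 1.05. edgeR called 1 of the 24 ER membrane proteins higher and 13 lower, and 0 of the 12 chaperones higher and 8 lower. It called 19 of the 21 glucose enzymes higher and 0 lower. Of all features 19.2% were called higher and 17.6% lower, and a call also depends on the counts behind a gene. The ER membrane enzymes of lipid synthesis thus had higher medians than the other ER lists, and the soluble ones lower medians than the glucose enzymes, differences that were not tested. SEL1L, of ER-associated degradation (-1.54), and STT3A, of the oligosaccharyltransferase (-1.45), were the lowest of the 24 in shRBM39 cells. In shControl cells the lowest of the 24 was TRAM1 (-1.46). ALDOA (1.40) and PFKL (1.36), both of glycolysis, were the highest glucose enzymes in shControl cells. In shRBM39 cells the highest glucose enzyme was at 0.96, short of 2-fold.

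**Figure D4:**
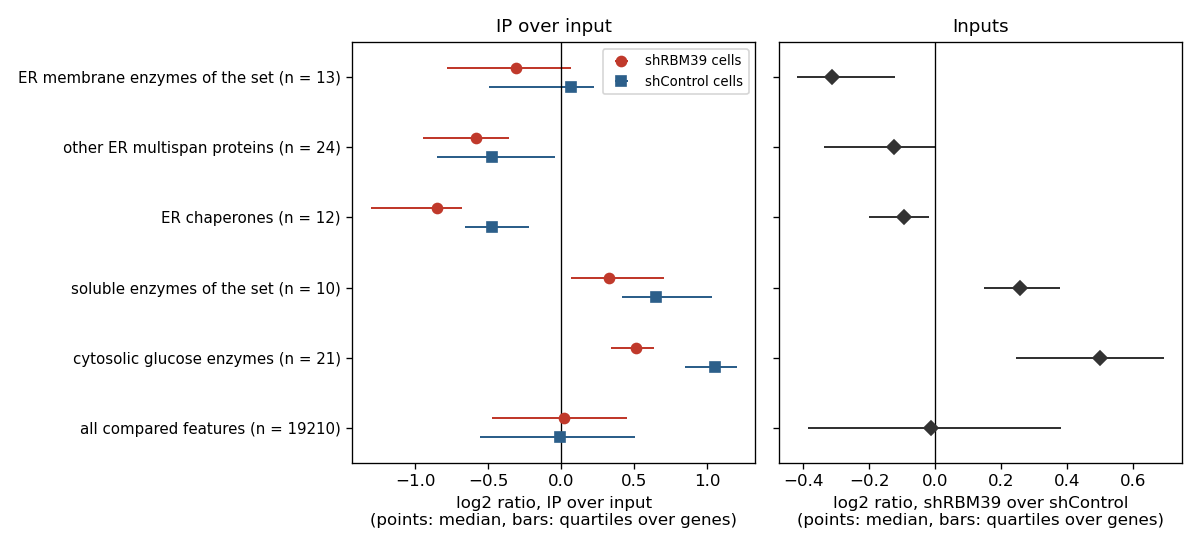
Median and quartiles of the log2 ratio of IP over input in each culture (left) and of the shRBM39 over the shControl input (right) for ER and cytosolic gene lists and for all compared features. Not all proteins of the list labelled multispan span the membrane more than once. The ER lists lie left of the cytosolic lists in each comparison, with medians of -0.31 and 0.33 for the ER membrane and soluble enzymes in shRBM39 cells.

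In the inputs the same lists had medians of -0.13 for the ER membrane proteins, -0.09 for the chaperones and 0.50 for the glucose enzymes. PKM (1.25, 1.21 to 1.28), ENO1 (1.02, 0.98 to 1.05) and PGK1 (1315 counts in the shRBM39 input and 649 in the shControl input), all of glycolysis, were the glucose enzymes higher by 2-fold in the shRBM39 input. The soluble lipid enzymes, with a median of 0.26, lay on the same side with smaller ratios.

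Further genes of sterol and fatty acid metabolism, 52 of them compared, were mixed in location. Of these edgeR called 9 higher in the IP and 16 lower, against 19.2% and 17.6% of all features, and their median log2 ratios of IP over input were -0.17 in shRBM39 cells and 0.04 in shControl cells. In shRBM39 cells, where 5.29% of all features were higher by 2-fold and 9.0% lower, 1 was higher, MCAT, the mitochondrial malonyl transferase (1.32, 0.88 to 1.81), and 7 were lower, among them ELOVL2, an elongase of polyunsaturated fatty acids (-1.64, -1.80 to -1.47), the sterol transporter NPC1 (-1.33, -1.50 to -1.16) and MBTPS2, the protease that cuts SREBPs (-1.23, -1.56 to -0.91). In shControl cells 4 were higher and 4 lower (7.7% and 11.3% of all features), with ELOVL2 at -1.71 (-1.88 to -1.55) and the elongase ELOVL7 at -1.87 (-2.40 to -1.37) among the lower ones. ELOVL2, NPC1 and MBTPS2, named for the size of their ratios, encode multispan membrane proteins. The list was not classed by location, so no share of such proteins is given. In the inputs the median was -0.19.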

How the data were processed

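RNA of 4 libraries (input and RBM39 IP of shRBM39 and shControl Huh7 cells) was sequenced. The deposited values are raw read counts by gene symbol, not normalized by the authors. The build hg38 and the tools StringTie 1.3.4d, HISAT2 2.0.4 and cutadapt 1.9 come from the submitters' processing notes, with no role, counting program, strand setting or annotation given in the sources used here. Of the counts from 3 to 6, 71.4% to 75.6% were even, so mates of a pair seem to be counted singly and intervals are too narrow. PCR duplicates are not removed by molecular identifiers, so intervals cover counting error only.

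Features that reached 10 counts in 2 or more libraries were scaled by TMM (edgeR 4.0.16, R 4.3.3), and log2 ratios were taken after adding 0.5. Intervals are exact conditional (Clopper-Pearson) ones, or from the counting standard error for the difference of ratios. The fraction test was edgeR's quasi-likelihood test, with DESeq2 1.42.0 as the alternative. Tested on simulated counts of 19210 features, that edgeR step made 7 false calls and found 50 of the 100 genes set to a 2-fold change and all 100 set to 4-fold. These counts had a single fixed dispersion, equal means in both cultures and the same IP effect in both. They therefore give no error rate for the real libraries, where ratios differ between the cultures. The members, classes and lists were chosen with earlier results of these data known, and the promoter motifs, the comparison between the IPs and the overlap alternative were added after the values were seen. All 29 genes are named, with up to 4 of each other list by size of ratio, and some genes of those lists are not reported here. A planned split of proteins by hydrophobic segments was not run because no protein sequences were used here. Of all columns, 0 belonged to other samples.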

Additional observations from a re-analysis of the deposited data

Results flagged for a closer look

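For 3 genes the counting intervals of IP over input lay on opposite sides of equality in the 2 cultures, below it in shRBM39 cells and above it in shControl cells. Of all 19210 features, 1.38% did so, and 1.8% lay the opposite way round, which 0 of the 29 genes did. Whether intervals exclude equality depends on the counts behind a gene, and with 1 library per group the difference was not tested. ACAT2 had log2 ratios of -0.05 in shRBM39 cells and 1.04 in shControl cells, a difference of -1.09. SQLE had -0.19 and 0.22 in the same order of cultures, a difference of -0.41. EBP had -0.31 and 0.07, a difference of -0.38. With libraries scaled to total counts the differences were -1.29, -0.61 and -0.57 in the same order of genes. Without the low-count filter, which changes the scaling, the ratios in shRBM39 cells were 0.06, -0.07 and -0.19 in that order. ACAT2 then lay above equality in both cultures, so its flag depended on the scaling. The differences without the filter were -1.07, -0.38 and -0.35. The shRBM39 input of ACAT2 was 1.10 times the shControl input, so for this gene the libraries that stand apart are the IPs.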

How the results depend on the processing

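The edgeR and DESeq2 fits pair each IP with the input of the same culture through the culture term. No paired analysis was possible because, for the other comparisons, the labels give no replicate numbers and each group has 1 library. Scaling to total counts, no low-count filter and a 1.5-fold threshold moved several values. In shRBM39 cells, members higher than input numbered 3 without the filter and 5 at 1.5-fold, and members lower 4 with total counts and 8 at 1.5-fold. There the median of all members was -0.11 with total counts and 0.12 without the filter, that of ER membrane enzymes -0.43 and -0.19, and that of soluble enzymes 0.22 and 0.45. With the regulators and STARD4 added, the class difference was -0.51 in shRBM39 and -0.46 in shControl cells. In shControl cells 10 members were higher at 1.5-fold. For the difference between the cultures, 4 members were lower at 1.5-fold, and total counts gave medians of -0.50 for all members, -0.48 for ER membrane and -0.56 for soluble enzymes. In the inputs 2 members were higher and 5 lower at 1.5-fold. Over both cultures edgeR with total counts called 7 members higher, with the share of all features under it not given here. TM7SF2, not called, changed sign to 0.089 in the edgeR fit without the filter. The scaling shift of all features was -0.11 with total counts in shRBM39 cells, and the split of all features into higher and lower was 718 and 2164 there, against 1016 and 1729 with TMM. For the difference it was 570 and 887 against 843 and 526. The cause of these changes beyond the scaling was not tested. Scaling moves both classes equally, so the class differences did not depend on it. Leaving out the 6 members that overlap a gene with 100 or more counts, an alternative chosen after seeing the data, gave soluble medians of 0.53 in shRBM39 cells, 0.77 in shControl cells and 0.37 in the inputs, and class differences of -0.84, -0.70 and -0.68 in the same comparisons. DESeq2's size factors and 5 added to each count moved no member count by over 1.5 times and no median by more than the counting error of a typical member. Leaving out LSS moved no class median or difference by more than that. Dividing counts by 2 changed no member count, but over all features the difference had 455 higher and 240 lower, against 843 and 526, and the inputs 687 lower, against 1102.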
